A study of Mus musculus with 8 samples.

Results

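The Rab GTPase genes of the mouse were described by the open chromatin around them in unstimulated CD8-positive dendritic cells. Members were the protein-coding genes whose symbol is Rab followed by digits and at most 1 lower-case letter, which gave 59 of the 21631 protein-coding genes of the autosomes and the X chromosome. The symbol chose them and no measured value did, but earlier results of these data were known when they were chosen. For each member, the accessible regions inside the gene or within 50 kb of either end were collected.

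Both samples were ATAC-seq libraries, in which a transposase cuts and tags accessible DNA. They made up 1 group, unstimulated CD8-positive dendritic cells of the mouse, and were labelled as its replicates. The source is given as spleen in one label field and as a cell line in another, and the cells were kept in IMDM medium with FCS. The series also holds ChIP-seq samples of cells given poly(I:C), CpG oligonucleotide or IFN-beta, which were not analysed here. No label gives a strain, sex or age, or states that the replicates were grown separately, and their sample names carry different tags whose meaning is not given. Differences between the replicates may therefore be technical, and with 1 group of 2 samples no test between groups was possible.

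Replicate 1 held 50950 peaks and replicate 2 held 58319, each called on that sample alone, and 44365 regions of the genome held a peak of both. The total read number of each library is unknown. The fewest reads at any listed summit were 7 in replicate 1 and 9 in replicate 2, so a missing peak means only that no accessibility could be detected at the depth and threshold of these lists. Of all protein-coding genes, 45.9% had a region shared by both replicates within 1 kb of the start. Of 14 genes that mark CD8-positive (cDC1) dendritic cells, 8 (57.1%) had such a region: Itgax, Flt3, Naaa, Wdfy4, Cadm1, Id2, Tlr3 and Irf8. The other genes of that list, Xcr1, Clec9a, Batf3, Itgae, Cd8a and Zbtb46, did not. Their nearest shared region lay between 1.22 kb (Clec9a) and 4.37 kb (Cd8a) from the start. Of 37 markers of other cells, 10 had such a region (27.0%): 3 of 5 for plasmacytoid dendritic cells, 3 of 5 for macrophages and monocytes, 2 of 5 for B cells, 1 of 5 for cDC2 cells and 1 of 4 for fibroblasts. None of the 5 T cell, 4 NK cell and 4 neutrophil markers had one. The part of other cells in the values below was not tested.

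Rab proteins are small GTPases that sit on the membranes of the cell and switch between a GTP-bound form, which recruits effectors, and a GDP-bound form, which is taken off the membrane. Each labels a step of vesicle traffic: budding from the endoplasmic reticulum and the Golgi, early endosomes, recycling, late endosomes and lysosomes, or secretory granules. Dendritic cells take up antigen into endosomes and phagosomes and load its fragments onto MHC molecules, and several Rab proteins are known to act on these compartments.

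A shared region within 1 kb of the gene's start, called an accessible start here, was found for 44 of the 59 Rab genes (74.6%), against 45.9% of all protein-coding genes. The start was the outermost 5′ end where the reference gives a strand and either end of the gene where it does not. Among the 48 members with a strand the count was 37 (77.1%), against 46.2% of all coding genes with a strand. At least 1 shared region lay inside the gene or within 50 kb for 55 members (93.2%), against 79.5% of all coding genes. Both shares of the Rab genes were above those of coding genes at large. The 15 members without an accessible start were Rab3b, Rab3c, Rab6b, Rab9b, Rab15, Rab17, Rab21, Rab25, Rab27b, Rab31, Rab34, Rab36, Rab38, Rab39b and Rab44.

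The reference's table of start sequences (RefSeq, GRCm38.p6) matched 48 of the 59 members. The 250 bases before the start are shown for 4 members of endosomes and phagosomes in which motifs of immune or lysosomal gene regulation were found. Capitals mark CACGTG (E-box), GTCACGTG (CLEAR-like) and TGACGTCA (CRE) at Rab5a (chr17:53478984-53479233, plus strand), CACGTG and GAAANNGAA (IRF-like) at Rab20 (chr8:11478641-11478890, minus strand), GAGGAAGT (PU.1-like) at Rab32 (chr10:10558208-10558457, minus strand) and TGANTCA (AP-1) at Rab34 (chr11:78188177-78188426, plus strand). Each runs 5′ to 3′ on the gene's strand and ends 1 base before the start.
Rab5a: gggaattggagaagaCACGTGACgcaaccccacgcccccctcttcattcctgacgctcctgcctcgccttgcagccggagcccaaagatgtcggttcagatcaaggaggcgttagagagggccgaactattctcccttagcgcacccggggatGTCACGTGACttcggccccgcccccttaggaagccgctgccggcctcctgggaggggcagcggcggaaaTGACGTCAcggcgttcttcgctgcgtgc
Rab20: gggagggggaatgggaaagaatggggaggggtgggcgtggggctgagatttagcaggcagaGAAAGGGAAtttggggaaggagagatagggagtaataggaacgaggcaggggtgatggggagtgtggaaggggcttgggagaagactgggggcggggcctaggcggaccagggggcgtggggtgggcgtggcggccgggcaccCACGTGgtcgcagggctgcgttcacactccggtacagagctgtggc
Rab32: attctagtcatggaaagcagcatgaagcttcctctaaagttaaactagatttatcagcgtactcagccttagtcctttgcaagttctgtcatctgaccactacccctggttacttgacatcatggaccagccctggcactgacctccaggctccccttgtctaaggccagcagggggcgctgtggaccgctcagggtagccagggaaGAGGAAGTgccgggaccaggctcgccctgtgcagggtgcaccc
Rab34: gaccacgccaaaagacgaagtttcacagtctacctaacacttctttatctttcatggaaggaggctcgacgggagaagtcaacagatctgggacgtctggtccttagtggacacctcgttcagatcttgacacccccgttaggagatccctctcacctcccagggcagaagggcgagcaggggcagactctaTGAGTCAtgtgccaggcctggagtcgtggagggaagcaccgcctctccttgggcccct
Of the 250 bases, 250 lay in the strongest start region of Rab5a, 70 in that of Rab20, 185 in that of Rab32 and 0 in any shared region at the start of Rab34. The E-box letters of Rab20 lay in its start region and the IRF-like letters did not. Over the 300 bases from 250 before to 50 after the start, on both strands, CACGTG was found in 5 of 48 members (10.4%, against 8.01% of 17274 genes), and GTCACGTG, which contains CACGTG, in 3 (6.25% against 2.89%). GAGGAAGT was found in 2 members (4.17% against 3.17%), GAAANNGAA in 3 (6.25% against 8.19%), GGAANNGAA (ETS-IRF-like) in 4 (8.33% against 7.57%) and CCGGAAGT (ETS) in 2 (4.17% against 5.34%). TGANTCA was found in 2 (4.17% against 7.09%), TGACGTCA in 2 (4.17% against 2.36%) and GCGCATGCG (NRF1-like) in 1 (2.08% against 2.43%). The promoter motifs GGGCGG (GC box) and CCAAT were found in 34 (70.8% against 46.9%) and 23 members (47.9% against 39.6%). Among coding genes with an accessible start, 66.8% held GGGCGG and 4.39% held GTCACGTG, and 27 and 2 of the 37 such members did. These are matches of letters, not sites known to be bound.

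Rab39 and its paralogue Rab39b show a strong contrast in base composition between a start with and a start without a shared region. Rab39b had the lowest GC content of the members with a sequence (35.7% over 300 bases around the start), so this pair is not typical. Their 250 bases before the start are given with each CG dinucleotide in capitals (chr9:53706233-53706482 and chrX:75578232-75578481, both on the minus strand).
Rab39: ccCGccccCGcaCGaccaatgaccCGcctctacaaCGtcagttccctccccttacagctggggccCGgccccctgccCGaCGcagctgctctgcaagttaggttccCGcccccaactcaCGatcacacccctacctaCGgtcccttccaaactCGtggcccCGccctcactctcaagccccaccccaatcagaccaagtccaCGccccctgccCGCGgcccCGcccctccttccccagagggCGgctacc
Rab39b: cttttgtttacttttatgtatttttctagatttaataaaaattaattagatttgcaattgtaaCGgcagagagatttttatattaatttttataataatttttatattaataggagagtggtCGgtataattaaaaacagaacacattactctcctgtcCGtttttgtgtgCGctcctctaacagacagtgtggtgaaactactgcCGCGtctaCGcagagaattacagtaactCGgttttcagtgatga
The Rab39 sequence held 18 CG dinucleotides and lay wholly in a shared region, and the Rab39b sequence held 8 and lay in none. Per 300 bases around the start, the 36 members with a shared region within 1 kb of the start to which the sequence belongs had a median of 24.5 CG dinucleotides (6 to 43), and the other 12 had 10.5 (5 to 42). The medians were 22 and 4 among all coding genes with and without a region there, and GC content was 63.3% and 58.2% in the members and 61.3% and 50.7% in all coding genes. That start can lie inside the outermost end used for the counts above: Rab21 had a region there, and Rab19 and Rab33a had none. Base composition alone did not sort the members: Rab6b, with 42 CG dinucleotides, had no shared region there, and Rab42, with 6, had one. Other split pairs differed in direction. Rab22a (27, with a region) and Rab31 (19, without) had the order of Rab39 and Rab39b. Rab6a (29, with) and Rab6b, and Rab9 (9, with) and Rab9b (17, without), had the reverse. In the Rab3 and Rab11 groups the genes with a region had the higher counts.

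The height of the 44 accessible starts is given as the authors' fold enrichment. It compares the reads at the summit with the local background of the same library, with 1 added to both before the ratio. The median was 8.47 in replicate 1 (3.89 to 11.8) and 8.85 in replicate 2 (4.22 to 12.9), against 8.09 and 8.41 at all accessible coding starts. At the summit lay a median of 25 reads (11 to 41) in replicate 1 and 37 (15 to 67) in replicate 2. Ranked by score within each list, Rab starts stood at a median percentile of 80.8 and 82.6, and all accessible coding starts at 73.8 and 76.5. Of the member starts, 13 (29.5%) had a mean percentile of 90 or more, against 19.2% of all accessible coding starts.

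**Figure D1:**
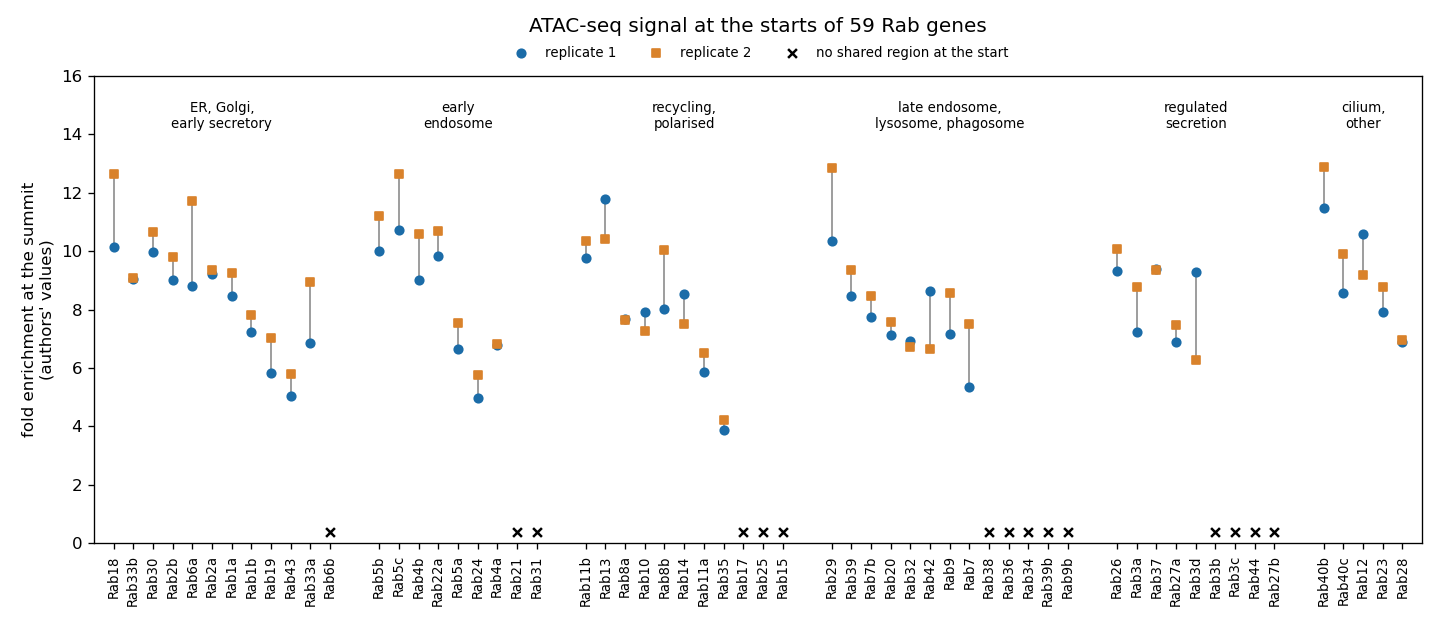
Fold enrichment at the summit of the strongest shared region within 1 kb of each Rab gene's start (vertical axis; circles replicate 1, squares replicate 2, joined by a line; where the 2 coincide the square covers the circle), with genes on the horizontal axis grouped by the role of the protein. Crosses near 0 mark the 15 genes without a shared region at the start; the other 44 lie between 3.89 and 12.9.

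The Rab proteins of the endoplasmic reticulum, the Golgi and the early secretory route had an accessible start at 11 of 12 genes, Rab6b being the exception. Rab18, which acts at the endoplasmic reticulum and lipid droplets, had the highest of them by percentile, reaching 10.1-fold in replicate 1 (31 reads) and 12.7-fold in replicate 2 (52 reads). Rab1a and Rab1b, which carry vesicles from the endoplasmic reticulum to the Golgi, reached 8.46 and 9.25 (Rab1a) and 7.24 and 7.80 (Rab1b) in the same order, the latter in a region that also lay at the start of Klc2. Rab1a was thus close to the family's medians and Rab1b below them. Rab43, which is known in CD8-positive dendritic cells for its part in cross-presentation, had low values of 5.06 (25 reads) and 5.81 (38 reads). Its region at chr6:87812078-87812286 spanned the gene's first base, and a weaker one lay 326 bp further in, at 3.82 and 4.21. In a bulk library, few cells with an open start and a weak opening in many cells cannot be told apart. The reads at the Rab43 start were close to the family's medians, and the fold enrichment was below them. A stronger region of 11.4 and 11.3 lay 61.8 kb downstream of the Rab43 start, at no coding gene's outermost start.

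Within this route the paralogues Rab6a and Rab6b, both of retrograde transport at the Golgi, differed. Rab6a had 8.79 in replicate 1 and 11.7 in replicate 2 at its start, in a region that also lay at the start of Mrpl48. Rab6b had no shared region at its start or in its 73.6 kb, and its nearest lay 90.4 kb from the start, at Srprb. Rab19 and Rab33a depended on which start was taken. The Rab19 region, at 5.82 and 7.03, had its summits at -757 and -747 bp from the gene's outermost end, where negative values lie upstream. The Rab33a region, at 6.86 and 8.93 with 13 and 24 reads, also lay at Aifm1. Neither gene had a shared region within 1 kb of the starts in the reference's table of start sequences.

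The group listed as early endosome Rab genes, in which Rab24 was counted, had an accessible start at 7 of 9. All 3 genes of Rab5, which governs the fusion of early endosomes, were among them. Rab5b stood highest of all 59 members by the mean percentile of the replicates (97.7 in replicate 1 and 99.3 in replicate 2). In replicate 1 alone, Rab13 stood higher (98.8). The Rab5b start was 10.0-fold (41 reads) and 11.2-fold (65 reads) above background, in a region that also lay at the start of Pmel. Rab5c had 10.7 and 12.6 (30 and 45 reads), and Rab5a had 6.65 and 7.53 (28 and 45 reads). The Rab5a start, whose sequence with E-box and CRE letters is printed above, was thus lower than those of its paralogues by fold enrichment in both replicates. Inside Rab5a, 9.52 kb from the start, a further region reached 11.4 and 12.1. Rab4b, of fast recycling, had 9.0 and 10.6. Rab4a had only 6.80 and 6.81, with 12 and 16 reads, in a region 83 bp wide that lay beyond its higher-coordinate end; its strand was not given, so this may not be its start.

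Rab22a and Rab31, a closely related pair of endosomal Rab proteins, differed in the call. Rab22a had 9.83 in replicate 1 (24 reads) and 10.7 in replicate 2 (36 reads). Rab31 had a start peak in replicate 2 only, of 9.07 with 36 reads, which stood at percentile 82.8 of that list. The nearest replicate 1 peak lay 1627 bp away, at 5.79. Rab31 was the only member of the 59 whose start was called in 1 replicate alone. Inside Rab31, 121 kb long, 4 shared regions were found, the strongest at 12.6 and 13.2, 97.9 kb from the start. Rab21, which acts in integrin traffic, had no shared region within 1 kb of its outermost end, but one at 5.45 and 4.77 (chr10:115315531-115315663) lay at the start that the reference's sequence table gives. A stronger one, at 9.27 and 10.0, lay 5.00 kb inside the gene.

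The Rab genes of recycling and polarised transport had an accessible start at 8 of 11. Rab11b, of the recycling endosome, had 9.75 in replicate 1 (39 reads) and 10.3 in replicate 2 (53 reads). Rab11a, whose protein is known in dendritic cells for carrying MHC class I molecules from the recycling compartment to phagosomes, was lower: its best-scoring region, about 1 kb inside the gene, had 5.85 and 6.52, and the one over the start had 5.13 and 7.38 (13 and 26 reads). Rab25, the epithelial member of the Rab11 group, had no accessible start, although 17 shared regions lay in its window. All 3 genes of the Rab11 group therefore differed in the height or the presence of the start region. The nearest region to the Rab25 start lay 2.85 kb away, inside the gene, and 8 of the 17 were at starts of other genes such as Lamtor2 and Ssr2.

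Rab8a and Rab10 serve exocytic and recycling transport, and Rab14 links endosomes with the Golgi. Rab8a had 7.69 in replicate 1 and 7.66 in replicate 2 at the start (41 and 56 reads), Rab10 had 7.91 and 7.28 (31 and 40 reads), and Rab14 had 8.52 and 7.51 (26 and 30 reads). The 3 starts had close fold enrichments, and they lay among many regions: 14 for Rab8a, 17 for Rab10 and 13 for Rab14. The highest start of the recycling group by fold enrichment in replicate 1 was that of Rab13, a protein of epithelial junctions, with 11.8 and 10.4 (40 and 43 reads), in a region also at the start of Rps27. Rab35, of endocytic recycling, had the lowest accessible start of the whole family, with 3.89 (17 reads) and 4.22 (26 reads) at percentiles of 6.89 and 27.6. Rab35 had stronger regions nearby, at 7.66 and 9.23 in a site 3.80 kb inside the gene. Rab15 had no shared region within 1 kb of its outermost end, and one of 7.74 and 7.46 lay 9.02 kb inside the gene, at another start that the reference's table gives. Rab17, an epithelial Rab, had its nearest shared region 3.70 kb from the start.

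The late endosome, lysosome and phagosome group had an accessible start at 8 of 13 genes. Rab7, which drives the fusion of late endosomes with lysosomes, had 5.36 in replicate 1 (13 reads) and 7.51 in replicate 2 (27 reads), among the 5 lowest member starts by percentile. Rab7b, of transport from late endosomes, had 7.75 (30 reads) and 8.48 (45 reads). Rab7b was the higher of the pair in both replicates. Rab39, a phagosomal Rab, had 8.48 (31 reads) and 9.37 (44 reads), and regions of 13.4 and 10.1 and of 11.2 and 14.5 lay inside the gene. Rab20, known for phagosome maturation, had 7.14 and 7.59 (24 and 34 reads) over its start and 8.98 and 10.5 at a site 7.20 kb inside. Rab32, of lysosome-related organelles, had 6.93 and 6.72 (25 and 37 reads) at the start and nearly the same values, 6.89 and 6.57, at a second region 654 bp inside.

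The close relative of Rab32, Rab38, had no shared region in its 61.3 kb or within 50 kb, and the nearest lay 126 kb from an end of the gene. Rab9, of transport from late endosomes to the Golgi, had 7.16 with 11 reads and 8.58 with 22 reads. Its X-linked paralogue Rab9b had none in its window, beyond 1 peak of replicate 1. Rab39b, also X-linked and known from neurons, had none either. Rab34, of lysosome positioning and macropinosomes, had no start region, and its nearest lay 4.71 kb away, at Rpl23a. Rab36 had 1 shared region in its window, at Bcr. Rab29 had the highest start of the group by percentile (10.3 and 12.8), and Rab42 stood at percentile 65.9 in replicate 1 and 36.1 in replicate 2 (17 and 16 reads).

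The Rab genes of regulated secretion had an accessible start at 5 of 9. Rab3a, of synaptic vesicle release, had 7.24 in replicate 1 (41 reads) and 8.78 in replicate 2 (67 reads). Rab3d, of secretory granules, had 9.28 with 18 reads and 6.26 with 15 reads, at percentiles of 72.3 and 29.5. Rab3b and Rab3c had no accessible start. The 4 Rab3 genes thus split evenly. Rab3c spans 227 kb and had a single shared region, of 5.37 and 7.02 with 8 and 15 reads. Rab27a, which acts in granule release and on dendritic cell phagosomes, had 6.90 and 7.49 (16 and 23 reads) in a region with its summits at -538 and -517 bp, and 7.16 and 6.37 (14 and 17 reads) in one over the start. Rab27b, 163 kb long, had no shared region within 50 kb, and the nearest lay 279 kb from an end. Rab26 and Rab37 had 9.32 and 10.1, and 9.39 and 9.36, in regions outside the gene body that also lay at Traf7 and Slc9a3r1, at ends whose strand was not given. At its other end, Rab26 had a region over the gene's highest-coordinate base and at no other coding gene's outermost start. This region had 9.47 in replicate 1 (29 reads) and 8.85 in replicate 2 (33 reads). Rab44, known from mast cells, had its nearest shared region 2.56 kb from an end.

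The remaining 5 members all had an accessible start. Rab40b and Rab40c, whose proteins carry a SOCS box and serve ubiquitin ligases, had 11.5 and 12.9 (28 and 43 reads), and 8.58 and 9.89 (35 and 56 reads). Rab12 had 10.6 and 9.17 with no other shared region in its window. Rab23, of Hedgehog signalling, had 7.91 and 8.76. Rab28 had 6.89 and 6.97. Both Rab40 starts were above the median of the family by percentile, and the start of Rab28 was below it.

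Of 16 groups of closely related Rab genes, 8 had an accessible start at every gene and 8 at some but not all: Rab3, Rab6, Rab9, Rab11 with Rab25, Rab22a with Rab31, Rab27, Rab32 with Rab38, and Rab39. No group lacked one at all its genes. Among the groups counted as complete, Rab4 rests on the Rab4a region beyond an end of unknown strand. The Rab33 group rests on Rab33a, whose call depended on which start was taken. Accessible starts were thus found in all 16 groups, in a family where 74.6% of members had one. Of the 15 genes without one, 9 had a close relative with one. Whether this spread differs from one set by the family's share alone was not tested.

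**Figure D2:**
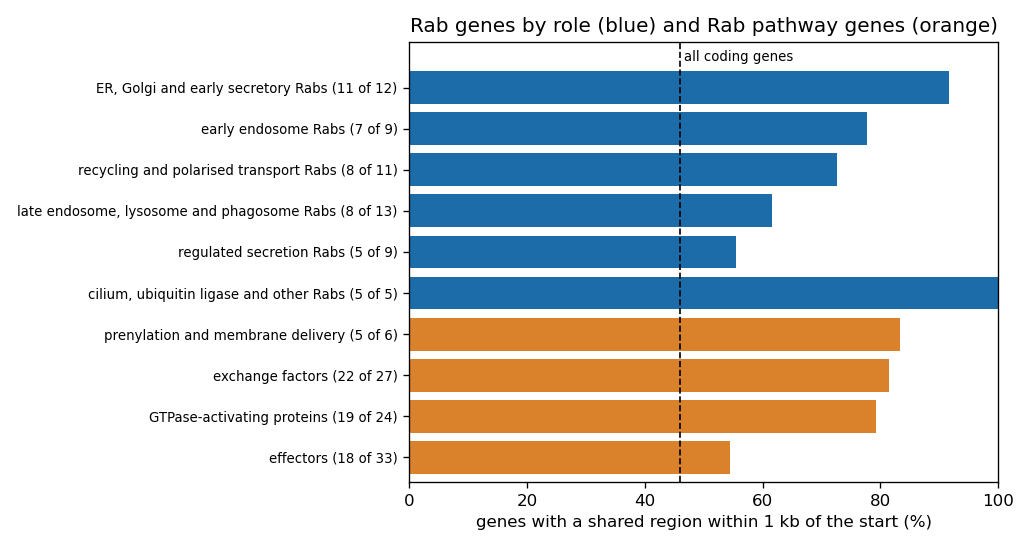
Percentage of genes with a shared region within 1 kb of the start (horizontal axis), for Rab genes by role (blue) and for genes that act on Rab proteins (orange), with counts beside each name. The dashed line marks all protein-coding genes at 45.9%. Every bar reaches past it, the shortest being effectors (18 of 33) and regulated secretion Rabs (5 of 9). The 5 include Rab37, whose only start region lay beyond an end of unknown strand, and the bar stands past the line only with this call.

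The genes that act on Rab proteins had accessible starts at 64 of 90 (71.1%). Of the genes for prenylation and membrane delivery, which attach the lipid anchor and extract Rab proteins from membranes, 5 of 6 had one. Gdi2, which takes GDP-bound Rab proteins off membranes, had 9.24 in replicate 1 (35 reads) and 9.32 in replicate 2 (52 reads). Chml had its nearest shared region 4.04 kb from the start. Exchange factors, which load GTP, had 22 of 27. Mon1b and Ccz1, of the factor for Rab7, had 9.08 and 8.56 (Mon1b) and 12.7 and 11.7 (Ccz1), and Rabgef1, a factor for Rab5, had 9.51 and 10.8. Rin1 and Rin3, also factors for Rab5, were lower at 5.25 and 3.98 (Rin1) and 6.56 and 7.16 (Rin3), and Rin2 had no accessible start. The exchange factors of the Rab5 step thus lay on both sides of the medians of the Rab starts. GTPase-activating proteins, which end the signal, had 19 of 24, with Tbc1d22b highest at 10.7 and 12.1.

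Effectors, which bind the GTP form, had an accessible start at 18 of 33 genes (54.5%, against 45.9% of all coding genes). The early endosome tether Eea1, an effector of Rab5, had 11.5 in replicate 1 (35 reads) and 11.7 in replicate 2 (49 reads), and Vps41, of the late endosomal tethering complex, had 13 and 11.9. Bicd2, a motor adaptor, had 12.1 and 9.73 (41 and 42 reads). The 15 without an accessible start included Rilp, an effector of Rab7, and the granule effectors Unc13d, Sytl1, Sytl2, Sytl3 and Sytl4. They also included Mlph, Myrip and Myo5a, which link vesicles to myosin. The rest were Rabep1, Rilpl1, Rab11fip4, Ehbp1l1, Mical1 and Ocrl. This arrangement by function was made after their values were seen. The nearest shared region to the start lay between 1.28 kb (Ehbp1l1) and 130 kb (Myrip) away.

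**Figure D3:**
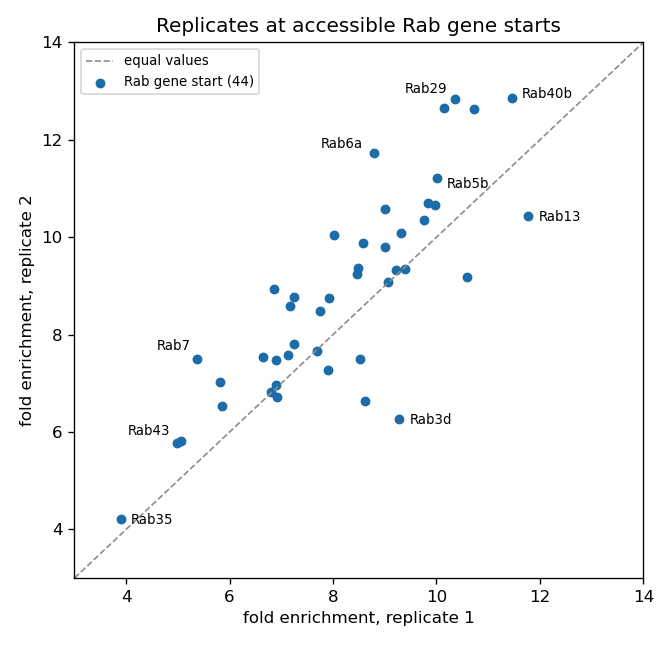
Fold enrichment at the 44 accessible Rab gene starts, replicate 1 on the horizontal axis and replicate 2 on the vertical axis, with 1 point per gene and a dashed line of equal values. Of the 44 points, 35 lie above the line, and Rab3d is among those below it.

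The 2 replicates ranked the accessible Rab starts alike. Across the 44 genes, which share the same 2 libraries, the fold enrichments had a Pearson's r of 0.82 and a Spearman's rho of 0.81, beside a rho of 0.76 across all accessible coding starts. Genes are not independent replicates, and these values only describe the libraries. At 35 of 44 starts the value was higher in replicate 2, and at 0 did the replicates differ by more than 1.5 times. All accessible coding starts also had the higher median in replicate 2 (8.41 against 8.09). The 44 starts had a peak in both replicates by definition, which leaves out larger differences such as Rab31, called in replicate 2 alone. The start regions had a median width of 354 bp (83 to 855), and 25 held several summits in each replicate. At 9 of the 44 members the strongest start region also lay at the start of another coding gene, the remaining 2 not named so far being Rab24 with Prelid1 and Rab2b with Tox4. In the 37 members with a strand, the best summit lay at a median of -60 bp in replicate 1 (-757 to 1045) and -54 bp in replicate 2 (-747 to 1051), where negative values lie upstream. Within 250 bp of the start lay 27 and 30 of these 37 summits.

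Of 491 replicate 1 peaks in the windows, 439 overlapped a replicate 2 peak (89.4%, 95% exact binomial interval 86.3 to 92.0), and of 518 replicate 2 peaks 433 were shared (83.6%, 80.1 to 86.7). Peaks of 1 replicate only had fewer reads, with a median of 14 against 19 in replicate 1 and 14 against 27 in replicate 2. Over all peaks of the genome, 90% of replicate 1 and 76.5% of replicate 2 were shared. The intervals cover counting error only.

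**Figure D4:**
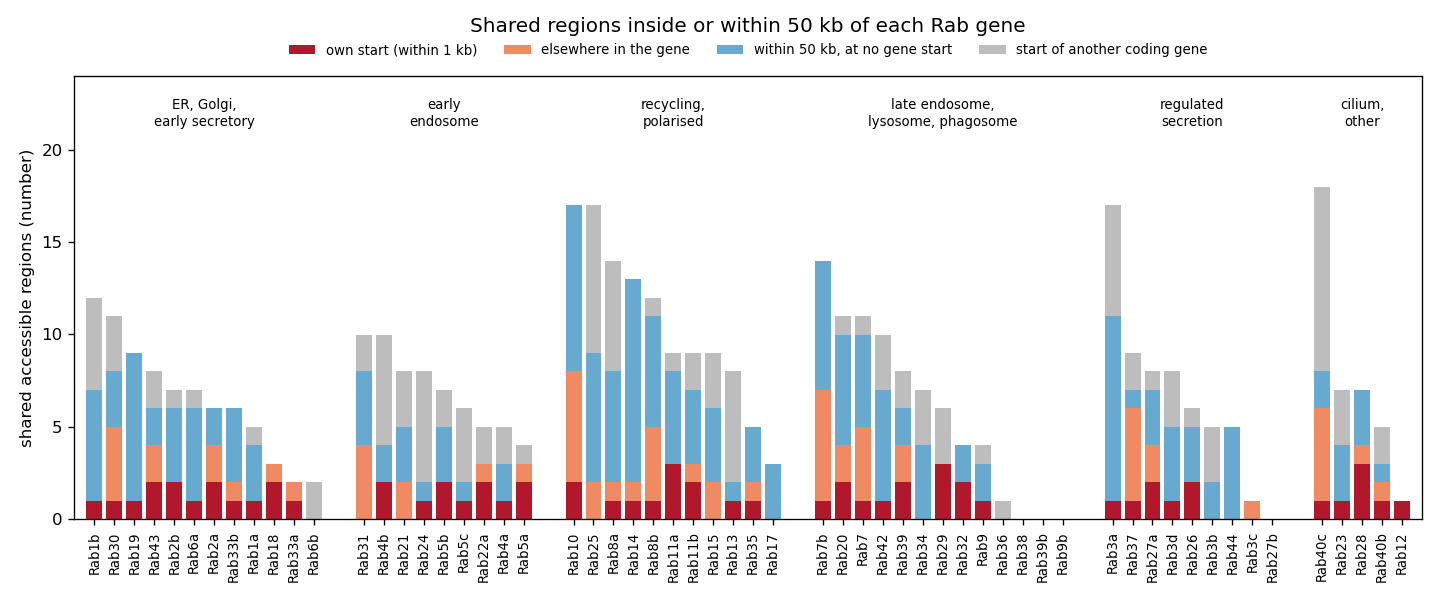
Number of shared regions inside or within 50 kb of each Rab gene (vertical axis), split by place, with genes grouped by role. Red is the own start and orange elsewhere in the gene. Blue lies within 50 kb at no coding gene's start, and grey at the start of another coding gene. Starts are the outermost ends of coding genes, and other starts that the reference gives are not counted. Rab40c has the most (18), and Rab27b, Rab38, Rab39b and Rab9b have 0.

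The windows of the 59 genes, 8.01 Mb with no overlap between members, held 430 shared regions. Only 65 of them (15.1%) lay at a member's own start, and 66 (15.3%) lay elsewhere in 28 of the genes. At the start of another coding gene lay 116 (27.0%), and 183 (42.6%) lay in the flanks at no coding gene's start. A coding gene's start was its outermost end here. Starts of non-coding genes, and other starts of coding genes, were not checked. For a neighbouring gene with no strand in the reference, either end counted as its start. Of the 183 flank regions, 105 lay inside another coding gene and 78 between coding genes. A member was the nearest coding gene to 28 of the 78. Most regions of the windows are thus as near to other genes as to a Rab gene, and which gene any of them serves was not tested.

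A Rab gene had a median of 7 shared regions (0 to 18), against 5 for all coding genes, and 5.42 per 100 kb of window against 3.35. Members with an accessible start had 8 regions and 5.80 per 100 kb, where all coding genes with one had 7 and 5.24. Members without had 3 and 2.69, where all coding genes without had 2 and 0.990. The members with an accessible start were thus close to other coding genes with one, and those without had more regions than other coding genes without. The number of regions went with the number of other coding genes in the window (Spearman's rho 0.42 over the 59 members and 0.39 over all coding genes) and not with the length of the window (-0.07), as descriptions across genes.

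The 8 genes with the most regions were Rab40c (18), Rab10, Rab25 and Rab3a (17 each), Rab7b and Rab8a (14 each), Rab14 (13) and Rab1b (12). They differed in where the regions lay. At Rab40c, 10 of 18 were at starts of other genes, among 11 coding genes in the window. At Rab10, with 0 other coding genes in the window, 2 lay at its start, 6 elsewhere in the gene and 9 in the flanks. At Rab7b, 6 lay inside the gene and 7 in the flanks, and 0 at another coding gene's start. Rab14 had 11 of 13 in the flanks, and Rab3a had 10 of 17 there.

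**Figure D5:**
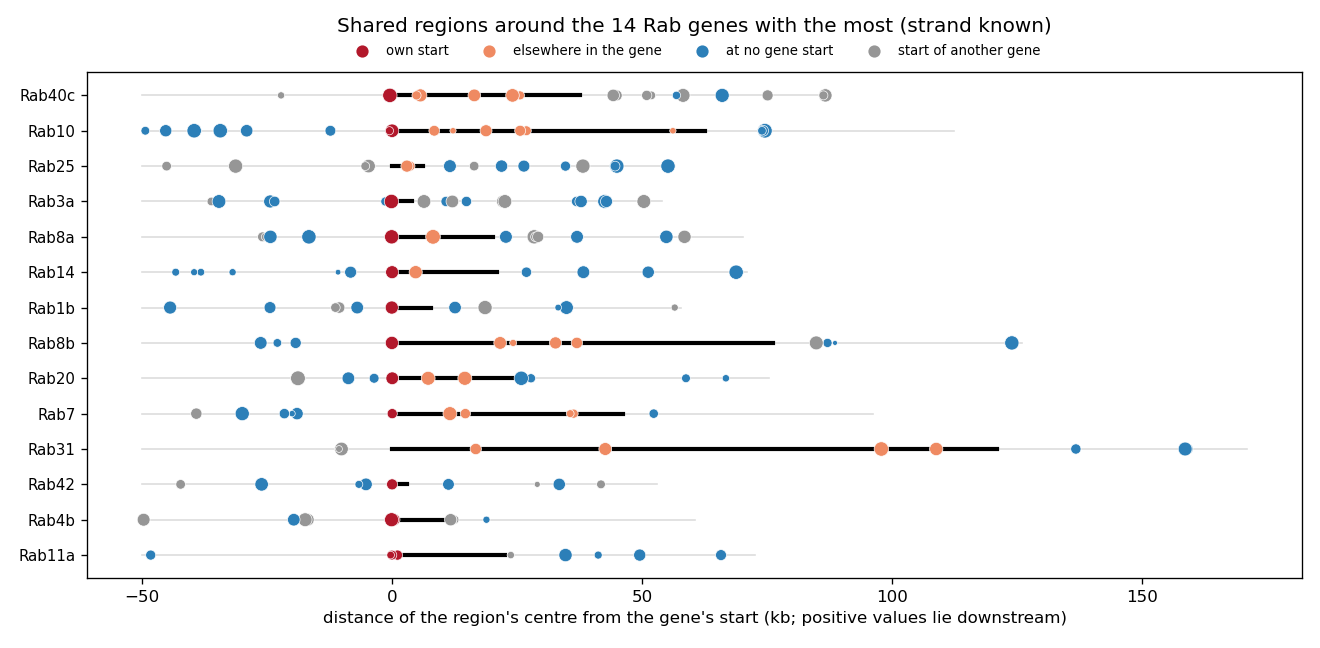
Shared regions around the 14 Rab genes of known strand with the most, by distance of the region's centre from the gene's start (horizontal axis, kb). Black bars are the genes, grey lines the windows, point colours the place and point sizes the mean percentile of the score; Rab10 has regions on both sides and along its length, and Rab25 and Rab31 have no point at their start.

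The strongest regions away from any coding gene's outermost start, chosen after their values were seen, had higher fold enrichments than the median start. One lay 30.8 kb upstream of Rab28 (chr5:41738874-41739131), between coding genes and nearer to Nkx3-2. It had 15.6 in replicate 1 (36 reads) and 14.3 in replicate 2 (47 reads). Inside Rab8a, 8.17 kb from the start (chr8:72169143-72169589), one had 10.7 (39 reads) and 13 (65 reads). Both stood above percentile 98 on the mean of the lists. One 41.1 kb upstream of Rab15, inside Fntb, had 13.9 and 14.5. One 74.6 kb downstream of the Rab10 start, for which Rab10 was the nearest coding gene, had 9.85 and 9.69 with 43 and 60 reads. In the windows of 19 members lay 25 such regions with a mean percentile of 90 or more. Of these 19 members, 4 lacked an accessible start of their own, where 15 of all 59 members lacked one.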

How the data were processed

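The 2 deposited peak lists hold 1 line per summit. BWA 0.7.17, HOMER 4.9.1, Picard 2.8.1, Trimmomatic, MACS2 and mm10 are named in the submitters' processing notes, without their roles; read shifting, duplicate removal and thresholds are not given in the sources used here, and each may alter the list of weak peaks. The deposited score, fold enrichment (a ratio) and −log10 p and q per summit are the authors' values and were used only to describe and rank peaks within a list. The replicates' lowest backgrounds (0.676 and 1.28 reads) differ, so folds are not strictly on 1 scale.

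Summits of a peak were joined, keeping the best score. A shared region is a merged stretch with overlapping peaks (1 bp or more) of both replicates. Reads at summits were worked out from the fold and the p, matching the deposited −log10 p within 0.002 for 100% of summits. Scripts were tested on simulated data. Genes and starts came from RefSeq GRCm38.p6, the assembly of mm10; 11 members had no strand. No test was run. The percentile is the rank of the score within a list, and the start value is that of the best-scoring region. Members, lists and motifs were chosen with earlier results of these data known. Named in full were the 8 members with the most regions, the 8 highest and 5 lowest starts, members without an accessible start, split paralogue groups and members with known dendritic cell roles. Python 3.11.15, numpy 2.4.6, scipy 1.17.1, pandas 2.3.3 and matplotlib 3.10.9 were used. Alternatives are given in the closing section.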

Additional observations from a re-analysis of the deposited data

How the results depend on the processing

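The number of Rab genes with an accessible start was 43 with a window of 500 bp (72.9%, against 43% of all coding genes). It was 45 with 2 kb (76.3% against 49.5%) and 44 with either end of the gene (74.6% against 47.8%). In the union of the replicates it was 45 (76.3% against 48.9%). Leaving out replicate 1 gave 45 (76.3% against 48.1%), and leaving out replicate 2 gave 44 (74.6% against 46.8%). A reciprocal overlap of 50% gave 42 (71.2% against 42.5%). The better-scoring 50% of each list gave 33 (55.9% against 33.4%). An alternative added after seeing the data, any start of the reference's table, gave 44 (74.6% against 48.3%). Rab19 and Rab33a were lost, and Rab15 and Rab21 were gained. Under all 9 alternatives 30 members kept the call, and 12 had it under none. Rab31 had it in the union and without replicate 1, and Rab21 with a window of 2 kb. Lost were Rab19 at 500 bp, Rab23 and Rab28 with the reciprocal overlap, and Rab3d, Rab4a, Rab7, Rab9, Rab11a, Rab24, Rab27a, Rab33a, Rab35, Rab42 and Rab43 with the better-scoring 50%.

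The median number of shared regions per Rab gene was 4 with a flank of 20 kb, 12 with 100 kb, 10 in the union, 8 to 9 when either replicate was left out, 6 with the reciprocal overlap, 3 with the better-scoring 50% and 2 when each region went to its nearest gene only, where all coding genes had 1. Per 100 kb it was 7.23 in the union, 5.91 to 6.55 when either replicate was left out, 4.91 with the reciprocal overlap, 2.65 with the better-scoring 50% and 1.81 with the nearest gene only. The share of peaks found in both replicates was 79.8% (replicate 1) and 75.9% (replicate 2) with the reciprocal overlap, and 78.3% (replicate 2) with the better-scoring 50%. The median fold enrichment of the start regions, 8.23 as the mean of both replicates, was 7.59 as a mean over summits. The numbers of regions follow from how much each setting keeps. No paired analysis was possible because the 2 samples analysed form 1 group.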
